A study of Mus musculus with 2 samples.

Results

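The genes described here were Avil, Cdh17, Gem, Trp53i11, Stc2, Adm2 and Igfbp6, 7 of the 32285 genes counted in both libraries. They were listed because their UMI counts (unique molecular identifiers, 1 per captured transcript) stood far higher in the dabrafenib library than in the control library, so their difference between the libraries over all cells is a description and was given no test. Myeloid-derived suppressor cells (MDSC) were grown from bone marrow of 10-week-old female C57BL/6 mice. Both cultures received IL-6 (50 ng/mL) and GM-CSF (50 ng/mL) over 4 days, one with dabrafenib (DAB, 1.5 µM) and the other with the same volume of its solvent, DMSO. Each condition gave 1 single-cell library (10x Genomics 5′ v2 chemistry), and the sources used here do not give the number of mice behind it. With 1 library per condition there was no replicate, so every interval below is a 95% interval that covers counting error only.

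After filtering, 9023 DMSO cells (92672876 UMIs, median 7549 per cell) and 10460 DAB cells (140200228 UMIs, median 9478) were left, of which 119 barcodes occurred in both libraries. Levels are given as CPM, the UMIs of a gene for each 1000000 UMIs of the same cells. Because 5′ chemistry counts 1 end of each transcript and transcript lengths were not modelled, levels are compared for 1 gene across cells and not between genes. Cells were clustered without the 7 genes and 11 of 28 clusters were named from marker lists. These names are rebuilt ones, and 17 clusters with 4682 DMSO and 6169 DAB cells stayed unnamed. The labelled cell type covers several populations, among them 140 DMSO and 188 DAB B cell-like cells, in which Cd79a stood at 1018 and 1753 CPM against 0.424 and 0.625 in the other cells.

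Dabrafenib is a kinase inhibitor made against mutant BRAF. It has also been linked to GCN2, the kinase that senses uncharged tRNA and raises translation of the transcription factor ATF4, which in turn switches on genes for amino acid synthesis and uptake and for tRNA charging. The 7 genes come from unrelated families. Avil encodes advillin, an actin-binding protein of the gelsolin and villin family. Cdh17 encodes liver-intestine cadherin, a cell adhesion protein. Gem encodes a small GTP-binding protein of the RGK family, which restrains voltage-gated calcium channels and cytoskeletal contraction. Trp53i11 is named as a gene induced by p53. The remaining members encode secreted proteins. Stc2 encodes stanniocalcin-2, a glycoprotein that inhibits the protease PAPP-A, Adm2 encodes the peptide adrenomedullin-2 (intermedin), and Igfbp6 encodes a binding protein with a preference for IGF-II.

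In GENCODE vM21 (GRCm38, all protein coding), Gem lies at chr4:11704457-11714752 and Cdh17 at chr4:11758147-11817895, both on the plus strand. They are neighbours, 43394 bases apart with 0 annotated genes between them. Avil lies at chr10:127000709-127020994 on the plus strand, Stc2 at chr11:31357307-31370074 on the minus strand, Trp53i11 at chr2:93187548-93201759, Adm2 at chr15:89322720-89324731 and Igfbp6 at chr15:102144362-102149511, these on the plus strand. Avil overlaps Tsfm, which lies on the opposite strand. The sources used here do not say whether the counting used strand. Over all cells, Tsfm itself stood at 18.7 CPM in DMSO cells and 25.4 in DAB cells (log2 ratio 0.44, 0.36 to 0.53).

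The 250 bases before the start of transcription were read for the 5 members with a RefSeq entry (GRCm38.p6), namely Avil, Stc2, Trp53i11, Adm2 and Igfbp6. Cdh17 and Gem had no entry. These windows were searched on both strands for TGATGNAA, the core of the C/EBP-ATF response element found in many ATF4 targets, for TGACGTCA, the cyclic AMP response element, and for TGANTCA, the AP-1 site. Of the 5 windows, only that of Avil held TGATGNAA, and none held TGACGTCA or TGANTCA. Among all 32851 promoter windows, 3.45% held TGATGNAA, 1.55% held TGACGTCA and 6.75% held TGANTCA. Of the 34 genes of the amino acid response list with a window, 10 held TGATGNAA. The Avil window (chr10:127000459-127000708, plus strand, 42% G and C) is shown whole because it is the only member window with the element, which is in capitals and starts 17 bases before the gene.
Avil: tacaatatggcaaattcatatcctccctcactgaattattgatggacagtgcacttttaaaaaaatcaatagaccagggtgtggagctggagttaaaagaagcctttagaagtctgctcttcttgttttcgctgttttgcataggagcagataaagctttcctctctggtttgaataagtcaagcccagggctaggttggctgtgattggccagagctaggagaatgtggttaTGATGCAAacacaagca

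The element of Avil is set out below beside those of 4 genes of the amino acid response list, so that the flanks can be compared. Each line holds 24 bases, 5′ to 3′ on the strand that reads TGATGNAA, with the motif in capitals. Asns (asparagine synthetase, chr6:7693217-7693240), Chac1 (a glutathione-degrading enzyme, chr2:119351041-119351064), Slc7a11 (the cystine transporter, 1 of its 2 sites, chr3:50443664-50443687) and Vldlr (a lipoprotein receptor, chr19:27216812-27216835) were shown. The Avil site lies at chr10:127000684-127000707. A match describes the letters of the window and not binding of a factor.
Avil: tgtggttaTGATGCAAacacaagc
Asns: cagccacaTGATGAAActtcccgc
Chac1: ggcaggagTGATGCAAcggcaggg
Slc7a11: catgtggcTGATGCAAacctggag
Vldlr: aggagcgcTGATGCAActattgct

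Over all cells, each of the 7 genes was low in the DMSO library and stood several times higher in the DAB library. Avil had 360 UMIs in DMSO cells and 7820 in DAB cells, 3.88 and 55.8 CPM (log2 ratio 3.84, 3.69 to 4.00). Cdh17 went from 7.35 to 77.3 CPM (3.39, 3.28 to 3.51) and Gem from 11.2 to 89.9 (3.0, 2.91 to 3.09). Trp53i11 went from 3.33 to 27.2 (3.03, 2.86 to 3.20). With a mean over cells in place of summed UMIs, each of these genes fell below its interval. The log2 ratio was then 3.16 for Avil, 3.15 for Cdh17, 2.52 for Gem and 2.25 for Trp53i11. Among the secreted proteins, Stc2 went from 5.69 to 56.0 (3.30, 3.17 to 3.43), Igfbp6 from 5.16 to 43.7 (3.08, 2.95 to 3.22) and Adm2 from 5.56 to 26.8 (2.27, 2.14 to 2.40). By the mean over cells, Igfbp6 (3.65) lay above its interval, Adm2 (1.92) below it and Stc2 (3.34) inside it. A gene was called where the ratio was at least 2-fold and its interval left out 1, among genes with at least 20 UMIs in both libraries together. All 7 members were called higher in DAB, beside 5.66% of the 16371 genes, but this contrast is the one that chose them. The libraries were also scaled by the median of gene ratios, which moved log2 values by 0.23 in the mature PMN-like class and by under 0.1 in the other classes compared.

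The cell classes that carried the 7 genes were not the same. Avil, Cdh17, Gem and Trp53i11 were highest in mature monocyte-like cells, the class named from MHC class II genes (H2-Aa 2675 CPM in DAB cells of the class against 173 in the other DAB cells). Those 575 DAB cells held 12.1% of all DAB UMIs but 45.6% of the Avil UMIs, 47.4% of the Cdh17 UMIs, 37.7% of the Gem UMIs and 57.2% of the Trp53i11 UMIs. Stc2 and Adm2 were highest in granulocyte progenitor-like cells, and Igfbp6 in chemokine-high granulocyte-like and mature PMN-like cells. The grouping into 4 and 3 genes used below was made after these levels were seen.

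**Figure D1:**
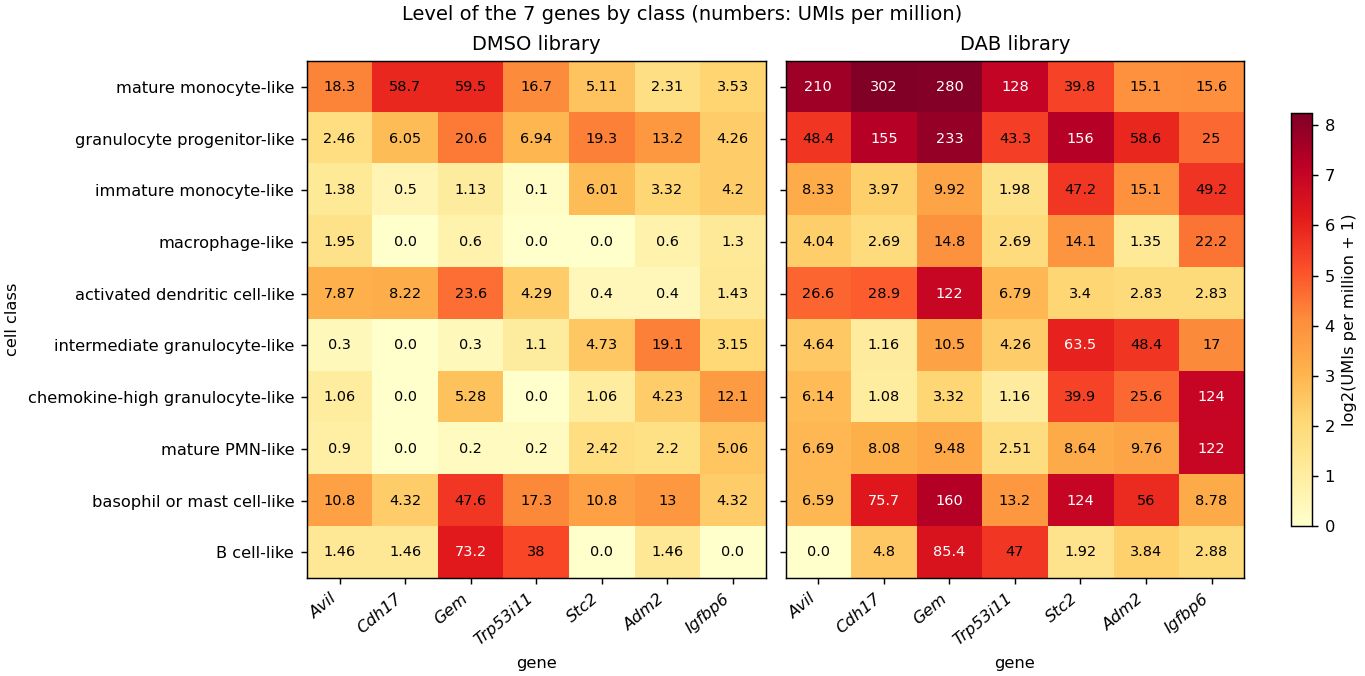
CPM of each of the 7 genes (columns) in the 10 named cell classes (rows) of the DMSO library (left) and the DAB library (right). Colour is log2 of the level plus 1 and the numbers are the levels. In the DAB library Avil, Cdh17, Gem and Trp53i11 peak in mature monocyte-like cells at 210, 302, 280 and 128, whereas Igfbp6 peaks at 122 in mature PMN-like cells and 124 in chemokine-high granulocyte-like cells.

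In mature monocyte-like cells, Avil stood at 18.3 CPM in DMSO (150 UMIs in 412 cells) and at 210 in DAB (3568 UMIs in 575 cells), a log2 ratio of 3.53 (3.29 to 3.77). Cdh17 went from 58.7 to 302 (2.37, 2.23 to 2.50) and Gem from 59.5 to 280 (2.23, 2.10 to 2.37). Trp53i11 went from 16.7 to 128 (2.95, 2.70 to 3.20). In the DMSO library too, Avil and Cdh17 had their highest level among the named classes here. Trp53i11 was higher in DMSO B cell-like cells (38.0), and it stood at 17.3 in basophil or mast cell-like cells on 8 UMIs. Gem stood at 73.2 (54.3 to 96.5) in DMSO B cell-like cells, which overlaps its DMSO level in mature monocyte-like cells (54.4 to 65.0). The secreted proteins were lower in this class but also stood higher in DAB. Stc2 went from 5.11 to 39.8 (2.96, 2.51 to 3.45), Adm2 from 2.31 to 15.1 (2.71, 2.04 to 3.47) and Igfbp6 from 3.53 to 15.6 (2.15, 1.59 to 2.75). In this class 6.23% of the 11821 genes tested were called higher and 8.8% lower. Adm2 reached the minimum of 20 UMIs only through the DAB cells, so the members called are not counted here. The UMIs of each class are part of those on which the members were chosen, so ratios within a class are descriptions too, here and in the classes below.

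In granulocyte progenitor-like cells, named from the primary granule genes Elane, Prtn3, Ctsg and Mpo, 6.57% of 11210 genes were called higher and 6.16% lower. Avil and Igfbp6 reached the minimum of 20 UMIs only through the DAB cells, so the members called are not counted here. Gem stood at 20.6 in DMSO and 233 in DAB (log2 ratio 3.50, 3.19 to 3.81), and Cdh17 at 6.05 and 155 (4.68, 4.13 to 5.29). Avil stood at 2.46 (11 UMIs) and 48.4 (4.29, 3.44 to 5.31), and Trp53i11 at 6.94 and 43.3 (2.64, 2.11 to 3.22). The Cdh17 ratio was larger here than in mature monocyte-like cells and their intervals did not overlap, and the same held for Gem. Stc2 had the highest level of any named class, 156 CPM in DAB against 19.3 in DMSO (3.02, 2.70 to 3.35). Its next class, basophil or mast cell-like cells, stood at 124 CPM with an overlapping interval (102 to 149 against 147 to 165). Adm2 stood at 58.6 against 13.2 (2.15, 1.76 to 2.57), and its level did not differ beyond the intervals from that of basophil or mast cell-like cells (56.0). Igfbp6 stood at 25.05 against 4.26 (2.56, 1.88 to 3.32).

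Igfbp6 had another distribution. In chemokine-high granulocyte-like cells, a class of 299 DMSO and 1518 DAB cells with high Cxcl2, Cxcl3, Ccl3 and Ccl4, it stood at 12.1 CPM (DMSO) and 124 CPM (DAB) (log2 ratio 3.36, 2.77 to 4.02). In mature PMN-like cells, marked by Csf3r, it stood at 5.06 and 122 (4.59, 3.98 to 5.26). Its DAB levels in these 2 classes did not differ beyond counting error, and the next class, immature monocyte-like cells, was at 49.2. The chemokine-high class held 24.5% of all Igfbp6 UMIs of the DAB library. It made up 14.5% of the DAB cells and had 0.603 times the median depth of its libraries. In both granulocyte-like classes Avil, Cdh17, Gem and Trp53i11 were far below their mature monocyte-like levels, at 1.08 to 9.48 CPM in DAB. Avil there, at 6.14 (4.82 to 7.71) and 6.69 (4.29 to 9.95), still lay above DAB B cell-like cells (0 CPM, up to 3.54). Depth was not matched between these classes. In the chemokine-high class, however, 18 of the DAB Avil UMIs lay in the same cell, and the level without that cell was not computed.

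In chemokine-high granulocyte-like cells, 3.62% of 10775 genes were called higher and 4.68% lower. Stc2, Adm2, Avil and Gem reached the minimum of 20 UMIs only through the DAB cells, so the members called are not counted here. Gem was not called, with 10 DMSO and 40 DAB UMIs, 5.28 and 3.32 CPM (log2 ratio -0.67, -1.70 to 0.49). When called doublets were kept, Gem in this class was at 16.5 and 7.74 CPM and was called lower (-1.09, -1.66 to -0.48). Stc2 was at 1.06 CPM in DMSO, resting on 2 UMIs, and at 39.9 in DAB (5.24, 3.38 to 8.29), and Adm2 at 4.23 and 25.6 (2.60, 1.60 to 3.82). Avil had 2 and 74 UMIs (2.54, 0.64 to 5.61), and 18 of the 74 lay in the same cell. Cdh17 and Trp53i11 had 0 DMSO UMIs and 13 and 14 DAB UMIs, too few for a comparison.

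In mature PMN-like cells, 9.11% of 10218 genes were called higher and 3.51% lower. Cdh17, Gem, Avil, Stc2 and Adm2 reached the minimum of 20 UMIs only through the DAB cells, so no count of members is given for this class. Cdh17 had 0 DMSO and 29 DAB UMIs, and 13 of the 29 lay in 1 cell. Its DAB level (8.08 CPM, 5.41 to 11.6) was 12.2 times a floor of 3 UMIs over the DMSO class, leaving counting error aside. That level overlapped that of DAB B cell-like cells (4.80, 1.56 to 11.2, on 5 UMIs). Gem had 1 and 34 UMIs (log2 ratio 5.43, 2.85 to 10.8), and 15 of the 34 lay in 1 cell. Avil had 4 and 24 UMIs (2.93, 1.38 to 4.91). Tsfm, which overlaps Avil on the opposite strand, stood at 11.4 and 29.5 CPM in this class (1.37, 0.88 to 1.88). Stc2 went from 2.42 to 8.64 CPM (1.84, 0.80 to 2.98) and Adm2 from 2.20 to 9.76 (2.15, 1.1 to 3.33), both well below their levels in progenitor-like cells. Trp53i11, with 1 and 9 UMIs, was under the minimum.

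**Figure D2:**
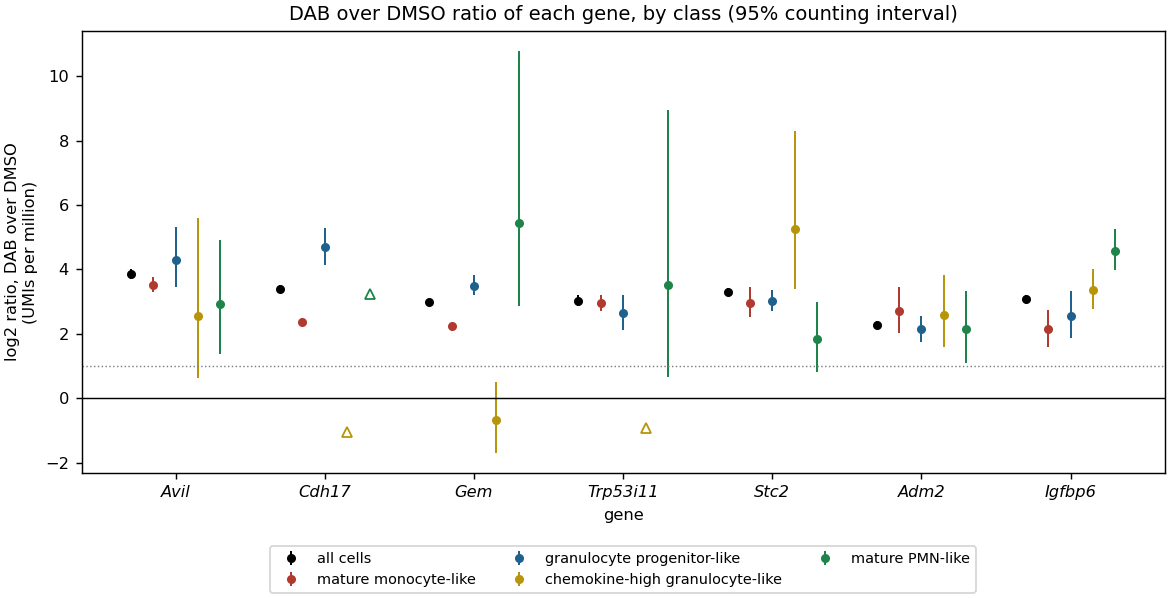
Log2 ratio of DAB over DMSO in CPM for each gene (horizontal axis) over all cells and in the 4 classes where both libraries had 200 cells or more. Bars are 95% counting intervals, the dotted line marks 2-fold, and open triangles mark the lower end of the interval where the DMSO class held 0 UMIs. Filled points lie above the dotted line except Gem in chemokine-high granulocyte-like cells, at -0.67. The open triangles of Cdh17 and Trp53i11 in that class also lie below the dotted line.

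The remaining classes had fewer than 200 cells in at least 1 library. Stc2 stood at 6.01 in DMSO and 47.2 in DAB in immature monocyte-like cells (log2 ratio 2.97, 2.57 to 3.38) and, in intermediate granulocyte-like cells, at 4.73 and 63.5 (3.75, 3.18 to 4.36). Adm2 was at 19.1 in DMSO intermediate granulocyte-like cells, its highest DMSO level among the named classes, and at 48.4 in DAB, its smallest ratio among the named classes where its UMIs reached 20 (1.34, 0.97 to 1.72). In basophil or mast cell-like cells (67 and 108 cells) Cdh17 went from 4.32 to 75.7 CPM and Gem from 47.6 to 160. The DMSO level of Cdh17 there rests on very few UMIs, so the size of its difference is uncertain. In activated dendritic cell-like cells, marked by Ccr7 and Fscn1, Gem went from 23.6 to 122 (2.37, 1.96 to 2.79), Avil from 7.87 to 26.6 and Cdh17 from 8.22 to 28.9.

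In B cell-like cells, Gem and Trp53i11 did not differ between the libraries beyond counting error. Gem stood at 73.2 CPM (DMSO) and 85.4 CPM (DAB) (log2 ratio 0.22, -0.29 to 0.75) and Trp53i11 at 38.0 and 47.0 (0.31, -0.41 to 1.05). The counts leave room for a rise of up to 0.75 and 1.05 on the log2 scale. The remaining 5 members had 0 to 5 UMIs in each library in these cells, 0 to 4.80 CPM. For those 5 genes, B cell-like cells serve as a guide to the level from free RNA. For Gem and Trp53i11, which B cell-like cells carry in both libraries, the level in chemokine-high granulocyte-like DAB cells serves instead, 3.32 and 1.16 CPM. Neither guide is matched for depth. B cell-like cells had 0.525 times the median depth of their libraries. The mature PMN-like clusters were shallower, at 0.389 and 0.294 times, and the same free RNA is a larger share of a shallower cell. Levels in mature PMN-like cells, that of Avil included, can therefore not be judged by these guides.

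High levels also lay outside the named classes. Cluster 14, led by the mitotic genes Ube2c, Cenpf and Top2a (297 DAB cells), held Gem at 201 CPM in the DAB library, Cdh17 at 167, Avil at 78.1 and Trp53i11 at 64.4. Cluster 13, led by Cpa3, Il2ra and Cd200r3 (125 DMSO and 487 DAB cells), held 21.4% of all DAB Avil UMIs, with Avil at 153 CPM in DAB and 17.5 in DMSO, while Gem was at 35.2 and Trp53i11 at 5.47. Cluster 10, led by the stefin genes Cstdc5 and Stfa1 (92 and 673 cells), held 15.05% of the Adm2 UMIs and 12.3% of the Stc2 UMIs of the DAB library. Its cells had 1.91 times the median depth of their libraries, and these shares are not scaled to depth. In cluster 17, led by Gm26917 and Gria3 (212 and 279 cells), Cdh17 stood at 199 and Stc2 at 139. The cells of cluster 17 were shallow, at 0.388 times the median depth of their libraries, and what they are was not tested.

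Avil, Cdh17, Gem and Trp53i11 were highest in the cells with the most MHC class II UMIs in both libraries. Cells other than B cell-like cells were grouped by the UMIs of the mature monocyte marker list (Cd74, H2-DMa, H2-Eb1, H2-Ab1, H2-Aa, Cd209a and Ciita) after each cell was thinned at random to 1500 UMIs. From cells with 0 list UMIs to cells with 15 or more, Cdh17 stood at 15.5 and 266 CPM in DAB, and at 0.412 and 34.8 in DMSO. Trp53i11 stood at 4.69 and 114 in DAB and at 1.13 and 13.3 in DMSO. Avil stood at 15.8 and 198 in DAB and at 1.55 and 14.2 in DMSO, and Gem at 36.1 and 237 in DAB and at 2.82 and 36.8 in DMSO. The gradient was not confined to the named class. Among the 248 DAB cells with 15 or more list UMIs that lay outside the mature monocyte-like class, Cdh17 stood at 208, Gem at 204, Avil at 126 and Trp53i11 at 86.1.

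The 3 secreted proteins went the other way. Stc2 stood at 77.3 CPM in DAB cells with 0 list UMIs and at 36.5 in those with 15 or more, and at 6.32 and 3.83 in DMSO cells. Adm2 stood at 39.6 and 12.4 in DAB and at 9.59 and 1.55 in DMSO. Igfbp6 stayed between 46.8 and 51.7 over the 4 lower groups of DAB cells and was at 13.5 in the highest. The difference between the libraries within a group is part of the contrast that chose the members, so it is a description. Cells with many list UMIs were also deeper (median 26508.5 UMIs in the highest DAB group against 9598.5 in the lowest). The levels are scaled to depth.

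**Figure D3:**
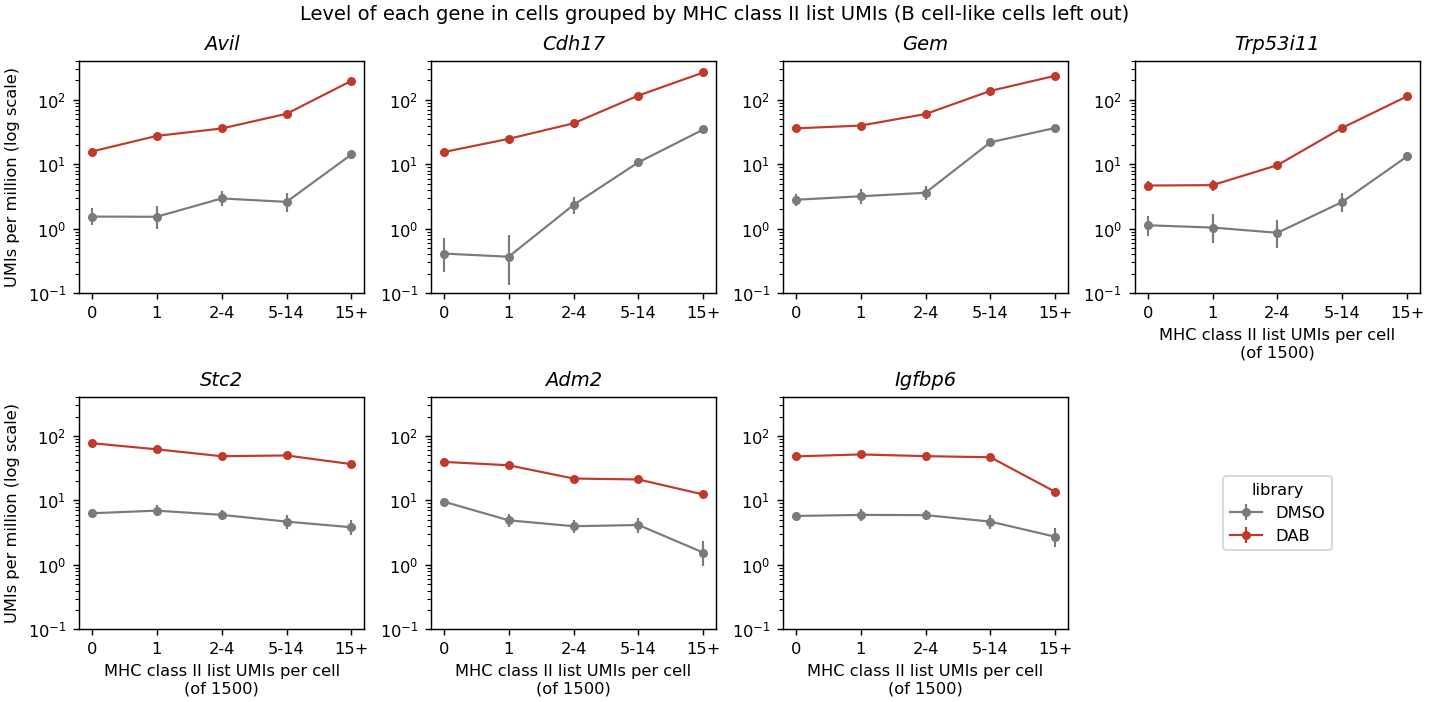
Level of each gene (CPM, log scale) in cells grouped by MHC class II list UMIs in 1500 (horizontal axis), for the DMSO library (grey) and the DAB library (red), with 95% counting intervals and B cell-like cells left out. Avil, Cdh17, Gem and Trp53i11 are highest in the group with 15 or more in both libraries, whereas Stc2, Adm2 and Igfbp6 are lowest there.

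The same split ran through the granulocyte progenitor-like class. Among its 271 DAB cells, thinned to 3000 UMIs, 55 held at least 2 of Avil, Cdh17, Gem and Trp53i11 and 143 held none. Cells with at least 2 carried 38.8 UMIs of the MHC class II list per 10000 against 6.95 in cells with none (log2 ratio 2.48, 2.28 to 2.68), and 8.85 UMIs of the granulocyte progenitor list against 44.8 (-2.34, -2.59 to -2.10). Cd74, the MHC class II invariant chain, stood at 32.2 and 4.66 per 10000, and Elane, neutrophil elastase, at 0.0606 and 13.2. Amino acid response genes stood at 54.7 and 54.4 per 10000 (0.01, -0.10 to 0.12). Mature monocyte-like DAB cells (313 with at least 2, 84 with none) differed from this. There the amino acid response list stood at 37.6 and 31.9 (0.24, 0.13 to 0.35). The MHC class II list stood at 194 and 203 (-0.06, -0.11 to -0.02). Progenitor-like cells with at least 2 were somewhat deeper before thinning (median 33374 against 26603 UMIs). The progenitor-like class as a whole had 2.88 times the median depth of its libraries after removal of called doublets, and the part of doublets that were not called was not tested.

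The class was then divided, after this was seen, into cells with more UMIs of its own markers (Calr left out) and cells with at least as many of the MHC class II list. This gave 127 and 144 DAB cells and 129 and 91 DMSO cells, of which 28 DAB and 33 DMSO cells lay within 2-fold of the limit. In DAB cells, Gem stood at 73.9 CPM where progenitor markers prevailed and at 372 where MHC class II prevailed, Cdh17 at 34.9 and 261, Avil at 11.6 and 80.7, and Trp53i11 at 14.3 and 68.8. Stc2 stood at 201 and 116, the reverse order, and Adm2 at 61.7 and 56.0 with overlapping intervals. The contrast between the libraries chose the members, so ratios inside each kind of cell are descriptions too. For Gem the log2 ratio of DAB over DMSO was 3.23 (2.57 to 3.96) and 3.32 (2.98 to 3.68). For Stc2 it was 3.24 (2.84 to 3.67) and 2.81 (2.29 to 3.37). For Trp53i11, on only 14 and 17 DMSO UMIs, it was 1.37 (0.50 to 2.34) and 2.96 (2.26 to 3.76).

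Counts per cell showed the same unevenness. If all DAB progenitor-like cells had carried Gem at 1 shared rate, 0.751% would have held no Gem UMI, and 42.1% held none. For Cdh17 the shares were 2.62% and 48.3%, and for Avil 26.3% and 71.6%. Stc2 was more even, with 8.49% of cells without a UMI against 2.58%, and Adm2 likewise, 30.6% against 20.3%. In mature monocyte-like DAB cells 7.65% lacked Cdh17 (0.745% from 1 rate), 22.4% lacked Gem (0.879%) and 28.2% lacked Avil (1.68%). The most Gem UMIs in a cell of that class were 72, with a median of 4.

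With all UMIs, 71.8% of DAB mature monocyte-like cells held Avil against 12.6% of DMSO cells, 92.3% against 36.2% held Cdh17, 77.6% against 31.3% held Gem and 81.9% against 18.7% held Trp53i11. The DAB cells of the class were deeper (median 29002 against 19637.5 UMIs). At 1500 UMIs per cell the shares were 22.8% against 3.41% for Avil, 37.3% against 6.08% for Cdh17, 28.6% against 7.30% for Gem and 12.9% against 2.68% for Trp53i11. B cell-like DAB cells (median 4937.5 UMIs) held Avil and Cdh17 in 0 of 175 cells at this depth, which allows a share of up to 1.71% by the limit of 3 counts and 2.09% by the Clopper-Pearson interval, and held Gem in 12%. Over all classes, 4.39% of DMSO cells (377 of 8588, 3.97 to 4.84) and 24.97% of DAB cells (2540 of 10172, 24.1 to 25.8) held a UMI of at least 1 member at 1500 UMIs. The DMSO and DAB shares were 11.4% and 56.8% in granulocyte progenitor-like cells, 1.75% and 22.4% in chemokine-high granulocyte-like cells, 2.06% and 18.5% in mature PMN-like cells, and 17.8% and 21.1% in B cell-like cells.

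The number of Avil, Cdh17, Gem and Trp53i11 found in each cell was counted next. These counts are not set against independence, and genes found in many cells share cells without any link. In 573 DAB mature monocyte-like cells at 3000 UMIs, Avil was found in 215, Cdh17 in 312, Gem in 241 and Trp53i11 in 183. At 3000 UMIs per cell, 54.6% of DAB mature monocyte-like cells (50.4 to 58.8) held at least 2 of the 4, against 5.64% of DMSO cells (3.61 to 8.34). In progenitor-like cells the shares were 20.3% (15.7 to 25.6) and 0.455% (0.0115 to 2.51). None of 1253 DAB chemokine-high granulocyte-like cells held 2 or more. With all UMIs, 283 of the 575 DAB mature monocyte-like cells held all 4 genes, as did 2 of 412 DMSO cells.

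**Figure D4:**
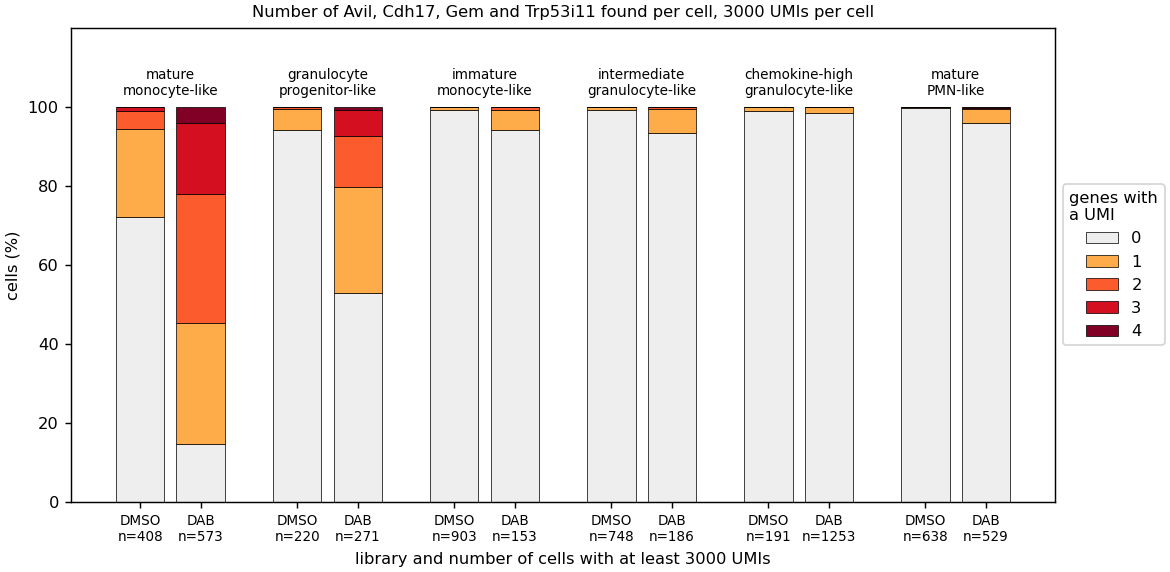
Share of cells (percent, vertical axis) in which 0, 1, 2, 3 or 4 of Avil, Cdh17, Gem and Trp53i11 had a UMI at 3000 UMIs per cell, by class and library. The number of cells is under each bar. At least 2 of the 4 were found in 54.6% of DAB mature monocyte-like cells and in 5.64% of those of the DMSO library. These shares are not set against independence.

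Co-detection was then set against the number of cells that would hold both genes if they were spread independently within each class or unnamed cluster, at 1500 UMIs per cell. Cdh17 and Gem shared 171 DAB cells against 86.4 from independence, a ratio of 1.98 (1.69 to 2.30), the highest of the 21 pairs. The ratio was 1.50 for Gem and Trp53i11 (49 cells, 1.11 to 1.98), 1.47 for Stc2 and Adm2 (34 cells, 1.02 to 2.05), 1.41 for Avil and Cdh17 (91 cells, 1.13 to 1.73) and 1.33 for Avil and Gem (71 cells, 1.04 to 1.68). The other 16 pairs had intervals that reached 1 or less, and the 6 pairs with Igfbp6 lay between 0.79 and 1.40. The median over the 21 pairs was 1.06. In DMSO cells Cdh17 and Gem shared 9 cells against 2.13 (4.23, 1.93 to 8.02).

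Cdh17 and Gem are also neighbours on the chromosome. Their ratio was 1.91 with clusters at resolution 0.5 and 2.00 at resolution 1.5, and 1.59 (1.42 to 1.78) with cells thinned to 3000 UMIs. At 3000 UMIs it was 1.14 (0.97 to 1.34) inside the DAB mature monocyte-like class, where Gem was found in 48.1% of cells with Cdh17 and in 34.9% of those without. It was 1.87 (1.30 to 2.60) inside the progenitor-like class. Within the cells of that class where MHC class II UMIs prevailed it was 1.38 (0.96 to 1.93), which overlaps the value of the whole class, and where progenitor markers prevailed 1 cell held both genes (1.07, 0.03 to 5.95). In DAB mature monocyte-like cells at 3000 UMIs, Avil was in 36.5% of cells with Gem and 38.3% without. Cdh17 was in 56.3% with Avil and 53.4% without, and Trp53i11 in 37.3% with Gem and 28.0% without. Progenitor-like DAB cells gave 20.8% and 7.22%, 46.7% and 21.6%, and 20.8% and 8.25% in the same order. Adm2 was in 2.90% of mature monocyte-like cells with Stc2 and 3.37% without, and in 14.6% and 13.2% of progenitor-like cells. How much of these ratios goes with differences of state inside a class was not tested.

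**Figure D5:**
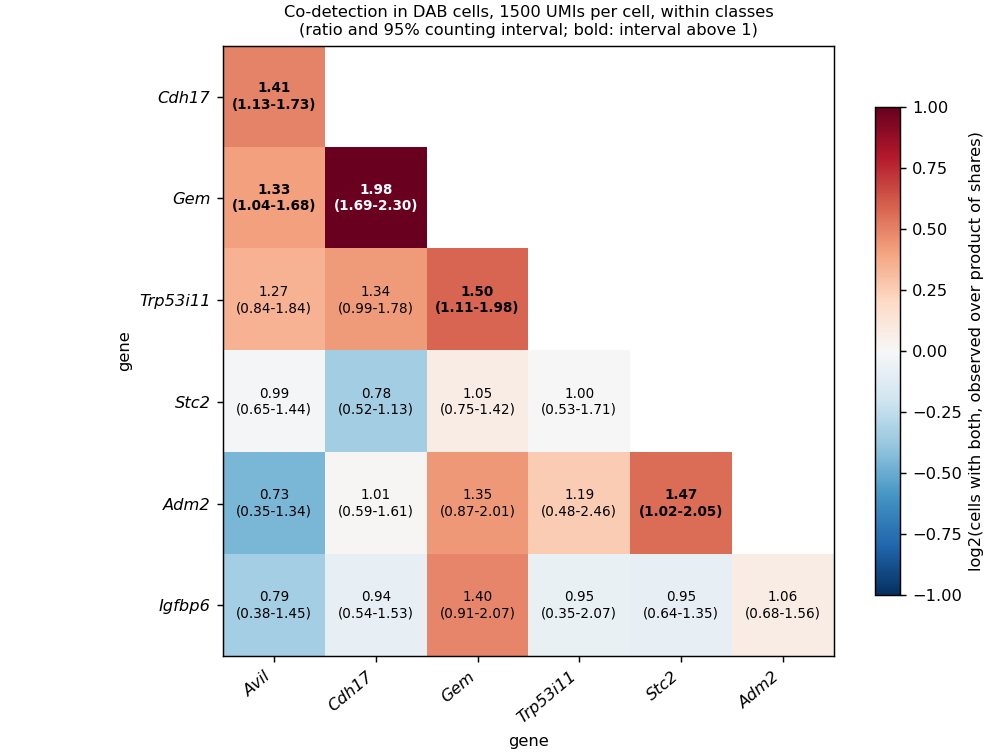
Ratio of DAB cells with both genes of a pair to the number from independence within classes, at 1500 UMIs per cell, for all 21 pairs. Colour is log2 of the ratio, numbers are the ratio and its 95% counting interval, and bold marks intervals above 1. Cdh17 with Gem stands at 1.98, and the row of Igfbp6 has no bold cell.

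The genes most like each member were found next, by the correlation of log2 levels over 19 units. A unit was a named class of 1 library with at least 100 cells, so the unnamed clusters were left out. Compared were 12130 genes with at least 200 UMIs. These correlations are descriptions, since the units share 2 libraries. They also take in the difference between DAB and DMSO that chose the members, which other genes higher in DAB share. Stc2 was closest to Cth (r = 0.93), which encodes the cysteine-producing enzyme cystathionine gamma-lyase and stood at 0.259 CPM (DMSO) and 32.8 CPM (DAB), to Vldlr (0.93) and to its fellow member Adm2 (0.90). Adm2 was closest to Stc2, then to Spn and Stk16 (both 0.86). Gem was closest to Slc1a4 (0.89), a neutral amino acid transporter, to Gbp4 (0.89) and to Trp53i11 (0.88), and Trp53i11 to Gem, Bspry and Sh3pxd2a (0.88 each). Avil was closest to Dscam (0.95), a cell adhesion gene that went from 2.82 to 38.1 CPM, and to Trappc3l (0.92) and Cd6 (0.90). Cdh17 was closest to Asb2 (0.92), Fam234b (0.91) and Fads3 (0.90), and Igfbp6 to the prostaglandin receptor gene Ptger2 (0.92), to Soat2 and to B3galt6 (both 0.90). Cth, Vldlr and Slc1a4 belong to the amino acid response list.

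The amino acid response list (39 genes counted, none of them a member) was itself higher in DAB, with 25 genes called higher, 1 lower and a median log2 ratio of 1.29 against -0.02 over all genes tested. Slc3a2 (1.19), Nars (1.13), Mthfd2 (1.49) and Gars (1.004) were the called genes with the most UMIs, Atf3 was lower (-1.24), and Cebpb (-0.32) and Atf4 (0.82) were not called. Cells of a class that held a member UMI carried slightly more UMIs of the list than cells of the same class that held none. In DAB the log2 ratio was 0.15 (0.13 to 0.17) for any member, and it lay between 0.10 for Trp53i11 (0.01 to 0.18) and 0.19 for Gem (0.14 to 0.24) for 6 of the members. For Avil it was -0.03 (-0.09 to 0.03). In DMSO cells it was 0.05 (-0.02 to 0.12), and only Adm2 had an interval above 0 (0.20, 0.03 to 0.37).

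Relatives of the 7 genes mostly did not move with them. Of 7 other gelsolin and villin genes, 1 was called higher, Scin, encoding the actin-severing protein scinderin (7.31 and 27.3 CPM, log2 ratio 1.90), and 0 lower, with a median of -0.20. Capg (0.28) and Gsn (0.22), the family genes with the most UMIs, were not called. Of 7 other cadherins, Cdh2 was called higher on 4 and 49 UMIs (3.02), Cdh3 lower (-1.07), and Cdh1 (-0.24) and Cdh23 (-0.62) were not called. None of the 3 other RGK genes was called, with Rrad at 0.49 and Rem2 at 0.00.

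Among partners of the secreted proteins, Stc1, Pappa and Pappa2 had 0 to 7 UMIs in each library, and Igfbp4 (0.58), the PAPP-A substrate, was not called. Of 8 other IGF system genes, Igf1 was called lower, from 4.68 to 0.371 CPM (-3.66), and Irs1 higher on 4 and 20 UMIs (1.72), while Igf1r (0.11) was not called. Igf2, the ligand that Igfbp6 prefers, had 0 UMIs in both libraries. Of 7 adrenomedullin family and receptor genes, Calca (3.12, on 7 and 92 UMIs) and Calcb (1.32, on 33 and 125) were called higher. Calca reached the minimum of 20 UMIs only through the DAB cells. Adm, the closest relative of Adm2, was called lower, from 10.3 to 2.29 CPM (-2.16), as were the receptor subunits Ramp3 (-1.32) and Ramp2 (-2.42, on 39 and 11 UMIs). The other receptor genes Ramp1 (-0.50) and Calcrl (-0.20) were not called.

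Of 19 other p53 targets, 2 were called higher, Gdf15 (1.23) and Perp (1.38), and 0 lower, with a median of 0.01. Cdkn1a, which encodes the cell cycle inhibitor p21, stood at 613 and 632 CPM (0.04), and Bax was at 0.28. Of 16 AP-1 and immediate early genes, 0 were called higher and 3 lower, Fos (-2.29), Nr4a3 (-1.21) and Fosb (-5.11), with a median of -0.41, while Ier3 (-0.11) and Jund (0.15) were not called. Over all genes tested the calls were 5.66% higher and 7.22% lower.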

How the data were processed

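A count matrix of each of 2 libraries was used, 1 library per condition, so no test between conditions was made and leaving out a replicate was not possible. The deposited values are raw UMI counts per gene and barcode, which the authors made with Cell Ranger 7.0.0 on mm10, with no normalization. 0 columns of per-sample values were left unused. Barcodes over 10% mitochondrial UMIs (55 DMSO, 89 DAB) or beyond 4 median absolute deviations (7 and 10) were removed, as were those with the highest scores against simulated doublets (777 and 1082). Pearson residuals of 3000 variable genes, without the 7 members, were reduced to 40 principal components, aligned by mutual nearest neighbours (k = 20) and clustered with Leiden at resolution 0.9. A cluster was named from fixed markers by a rule set with the clusters in view.

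Ratios compare UMIs summed over cells, with exact binomial intervals. Levels carry Poisson intervals and shares Clopper-Pearson intervals, all at 95%. For shares of cells, each cell was thinned to 1500 UMIs unless stated otherwise. UMIs per list, class or pair were compared without a test. The members, lists and comparisons were chosen with earlier results of these data known. Named genes were the 7 members, the 3 genes most like each, and in each list up to 4 called genes per direction and the 2 uncalled genes with the most UMIs. Genes leading a cluster, and the split of the progenitor-like class, were chosen after their values were seen. Alternatives were no mitochondrial filter, doublets kept, no alignment, other resolutions, clustering without genes that differ between the libraries, other scaling, thinning or fold limits, no minimum of UMIs, a mean over cells and, chosen after seeing the data, weighting by cluster. The ratios, their calls and the co-detection ratio were tested on simulated data. Software was Python 3.11.15, numpy 2.4.6, scipy 1.17.1, pandas 2.3.3, scikit-learn 1.9.0, scanpy 1.11.5, igraph 0.11.9, leidenalg 0.10.2 and matplotlib 3.10.9.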

Additional observations from a re-analysis of the deposited data

How the results depend on the processing

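Of 43 recomputed values for the main comparisons, 38 kept their direction and moved by less than their limit, 5 moved and 0 reversed. A count was within its limit if it changed by no more than 1.5-fold. Of 71 further values for single genes, pairs and DMSO shares, 58 stayed within their limit, 13 moved and 0 reversed. The median log2 ratio of the 7 genes over all cells (3.08) ranged from 2.96 to 3.15, the lowest with each cluster weighted by its share of the DMSO UMIs, an alternative chosen after seeing the data (25 clusters, 97.0% of DMSO UMIs). With a mean over cells in place of summed UMIs, Avil was at 3.16, Cdh17 at 3.15, Gem at 2.52, Trp53i11 at 2.25, Igfbp6 at 3.65 and Adm2 at 1.92. All of these lay outside their main intervals, Igfbp6 above and the others below. The share of DAB cells with a member UMI was 39.4% at 3000 UMIs and 59.8% without thinning, against 7.88% and 17.8% of DMSO cells. The amino acid response ratio beside members was 0.13 with doublets kept and 0.21 without thinning. With 1.5-fold in place of 2-fold, 16 list genes were called lower in place of 9, and 43 higher in place of 32. The 43 values include 5 recomputed medians of the members' own ratios, whose direction the choice of members set. They also include 8 recomputed counts of gene and class pairs called higher. All values of both kinds are among the 38. The counts of pairs are not given, since several pairs reached the minimum of UMIs only through the DAB cells. The choice of members also largely set these counts, so no conclusion is drawn from them. The Cdh17 and Gem ratio was 1.59 at 3000 UMIs and 1.45 without thinning.

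The size of the classes changed with the clustering. The 271 DAB cells of the granulocyte progenitor-like class became 95 at resolution 0.5 and 56 without alignment, and the 155 of the immature monocyte-like class became 2060 and 45. No paired analysis was possible because each condition has 1 library and the labels give no replicate numbers. Genes with few DMSO UMIs, such as Stc2 in chemokine-high granulocyte-like cells, have wide intervals at this depth.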
